A study of Mus musculus with 11 samples.

Results

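The genes described here are 10 core components of the nuclear factor kappaB (NF-kappaB) pathway: the subunits *Rela*, *Relb*, *Rel*, *Nfkb1* and *Nfkb2*, the feedback inhibitors *Nfkbia* and *Tnfaip3*, and the IkappaB kinase (IKK) genes *Chuk*, *Ikbkb* and *Ikbkg*. They were chosen by symbol, as known members of the pathway, and are 10 of the 35056 genes to which the transcript estimates were summed. All 10 were among the 14106 genes with enough reads to be tested. RNA was sequenced in bulk from KP1, a mouse small-cell lung cancer (SCLC) line with mutant *Rb* and *p53*, grown in culture. The control group was 2 libraries of untreated cells (control 2 and control 3), and the irradiated group was 3 libraries of cells given 5 Gy (irradiated 1, 2 and 3), with pellets taken 24 h after the dose. Both groups carry the same mutations, all libraries come from 1 line, and no source used here says whether replicates were separate cultures, so the spread between them may be technical. The series also holds 6 single-cell samples of tumor leukocytes from NSG mice, not analysed here.

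NF-kappaB is a family of dimeric transcription factors that share a Rel homology domain. In resting cells the dimers are held in the cytoplasm by IkappaB proteins. Inflammatory cytokines, or DNA breaks signalling through the kinase ATM, activate the IKK complex, which marks IkappaB for degradation and frees the dimers to enter the nucleus and bind kappaB sites. Much of this control acts on proteins, which were not measured in these libraries, while several inhibitors and subunits are themselves transcribed from NF-kappaB-responsive promoters, giving a feedback loop that can be read in RNA.

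Promoter sequence was examined for this reason. RefSeq windows (GRCm38.p6) matched 7 of the 10 genes, and the 250 bases upstream of the gene start nearest to the main transcript were searched on both strands for the kappaB consensus. It occurred at least once for *Nfkbia*, *Nfkb2*, *Tnfaip3* and *Rel*, that is for 4 of the 7 genes, and in 7.3% of all 32851 windows. The 3 windows without a match were those of *Rela*, *Chuk* and *Ikbkg*. The upstream windows of *Nfkbia* and *Rel*, the first the classical feedback inhibitor and the second the member with the lowest level, are shown 5′ to 3′ on the gene's strand with the matches in capitals. The *Nfkbia* window is chr12:55492648-55492897 on the minus strand, with the match starting 29 bases before the gene start. The *Rel* window is chr11:23770970-23771219 on the minus strand, with overlapping matches starting 92 bases before the gene start.
Nfkbia upstream: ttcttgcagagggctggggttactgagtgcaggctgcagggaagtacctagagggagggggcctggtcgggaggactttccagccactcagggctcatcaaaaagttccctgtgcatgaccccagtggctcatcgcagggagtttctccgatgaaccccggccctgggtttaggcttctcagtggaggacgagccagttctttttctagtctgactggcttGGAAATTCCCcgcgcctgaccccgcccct
Rel upstream: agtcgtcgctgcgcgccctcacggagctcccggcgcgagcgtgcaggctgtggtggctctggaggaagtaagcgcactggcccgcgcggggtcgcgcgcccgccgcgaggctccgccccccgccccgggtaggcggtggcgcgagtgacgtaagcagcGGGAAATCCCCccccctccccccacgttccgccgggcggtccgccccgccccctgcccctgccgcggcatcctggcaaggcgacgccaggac

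For *Nfkb2* and *Tnfaip3*, which had 2 matches each, only the 30 bases around each match are given. The *Nfkb2* matches lie in chr19:46304689-46304718 and chr19:46304707-46304736 on the plus strand, starting 39 and 11 bases before the start used. The *Tnfaip3* matches lie in chr10:19015516-19015545 and chr10:19015411-19015440 on the minus strand, starting 125 and 12 bases before the start used. For these 2 genes the start used, that nearest to the main transcript, lies inside the gene span given below. Both spans begin further upstream and contain the matches. A window with 2 or more separate matches was found for 0.4% of all windows. A match is a description of the letters and was not tested for binding.
Nfkb2 first match: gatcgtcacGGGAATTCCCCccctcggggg
Nfkb2 second match: ccccctcggggggccgaaaGGGGCTTTCCc
Tnfaip3 first match: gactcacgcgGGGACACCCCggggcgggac
Tnfaip3 second match: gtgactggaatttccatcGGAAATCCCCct

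The libraries held 21185956 to 31036317 estimated reads. The transcript length averaged over reads was 5463 and 4729 bases in the control libraries and 3625 to 3998 bases in the irradiated ones, so it separated the groups, and values with an offset for each library's length trend are given where they change a result. All 10 neuroendocrine SCLC markers examined were at 1 TPM (a level scaled per transcript length and to a fixed library total) or more in every library, with a summed level of 2827 to 3009 TPM in control and 2748 to 2944 TPM in irradiated cells. None of 10 leukocyte markers and none of 7 fibroblast and endothelial markers reached 1 TPM in every library. The leukocyte markers summed to 4.55 to 7.51 TPM in control and 2.39 to 4.31 TPM in irradiated libraries, and 6 of them had at most 3 reads in each. The fibroblast and endothelial markers summed to 14.9 TPM in control 2, 1.12 TPM in control 3 and 0.451 to 0.652 TPM in irradiated libraries, and 3 of them had at most 3 reads in each. Their part in the results was not tested.

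At 24 h after 5 Gy, no core NF-kappaB gene passed the test in either direction. Of the 10 genes, 0 were called higher and 0 lower by edgeR's quasi-likelihood test at an adjusted p under 0.05, where 25.6% of all tested genes were called (12.7% higher and 13.0% lower). Only *Rel* had an unadjusted p under 0.05 in this fit. With an offset for effective length (see the processing below) 4 members had one and 0 were called by edgeR. The share of all genes with such a p was not counted. At the study's thresholds (a log2 fold change beyond 1.5 in either direction as well), 0 members were called, where 1.63% of all genes were higher and 1.9% lower. With DESeq2, 1 gene (*Rel*) was called lower, where 14.8% of all genes were. With limma on log2(TPM + 0.5), 2 genes (*Nfkb1* and *Chuk*) were called lower, where 19.0% of all genes were. The estimated log2 fold change of irradiated over control was within 0.5 of 0 for 9 of the 10 genes, 4 were above 0 and 6 below, and the median was −0.08 beside 0.02 over all genes tested. TMM-scaled CPM, a read count relative to library size, did not overlap between the groups for 5 genes, *Nfkbia* and *Ikbkg* being higher and *Rela*, *Rel* and *Ikbkb* lower, where 59.4% of all tested genes did not overlap (30.1% higher and 29.3% lower).

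**Figure D1:**
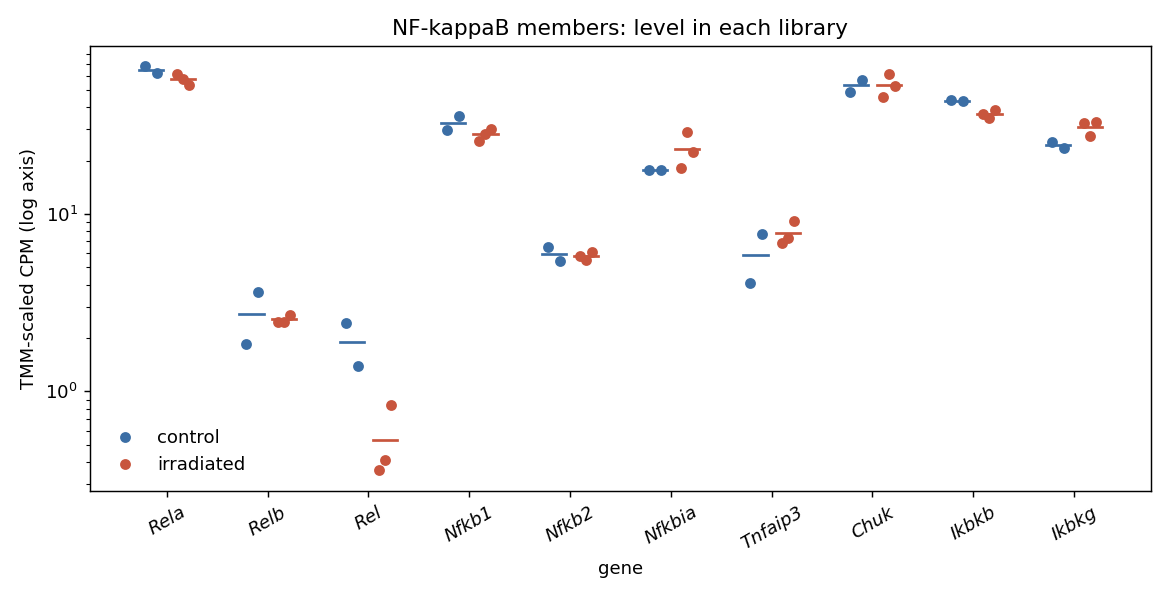
CPM of each of the 10 genes (log axis) in the 2 control (blue) and 3 irradiated (red) libraries, with a bar at each group mean. Levels run from under 1 CPM for *Rel* after irradiation to about those of *Rela*, the highest in control, and within most genes the groups lie side by side.

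*Rela*, at chr19:5637483-5648130 (GRCm38, plus strand), encodes p65, the transactivating partner of the canonical p50:p65 dimer. It stood at 68.1 and 62.2 CPM in the control libraries and at 61.1, 57.6 and 53.4 CPM in the irradiated ones. The irradiated values were all lower, but by little, with a log2 fold change of −0.18 (SE 0.144, 95% interval −0.51 to 0.15, edgeR adjusted p = 0.369).

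*Relb* (chr7:19606217-19629438, minus strand) encodes the main partner of p52 in the non-canonical pathway. Its level was 1.86 and 3.64 CPM in control and 2.47, 2.47 and 2.70 CPM in irradiated cells. All irradiated values lay between those of the controls, and the log2 fold change was −0.11 (SE 0.431, edgeR adjusted p = 0.874).

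*Rel* (chr11:23736847-23770970, minus strand) encodes c-Rel, a transactivating subunit best known from lymphocytes. It received 69 and 37 reads in the control libraries and 9, 9 and 23 in the irradiated ones, or 2.42 and 1.39 CPM against 0.358, 0.411 and 0.838 CPM. The groups did not overlap, although the counts were small. The log2 fold change was −1.81 (SE 0.628, 95% interval −3.25 to −0.37, unadjusted p = 0.0194, edgeR adjusted p = 0.0649), and DESeq2 gave an adjusted p of 0.0458. Over all 17 alternatives the adjusted p ranged from 0.0458 to 0.631. *Rel* has 1 long annotated transcript of 7466 bases, and with the length offset its log2 fold change was −0.995 (edgeR adjusted p = 0.283).

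The precursor subunits are processed to p50 and p52. *Nfkb1* (chr3:135584655-135691547, minus strand), which encodes p105 and p50, stood at 29.8 and 35.5 CPM in control and 25.9, 28.2 and 30.2 CPM in irradiated cells. The groups overlapped, with a log2 fold change of −0.22 (SE 0.168, edgeR adjusted p = 0.365). *Nfkb2* (chr19:46304320-46312385, plus strand), which encodes p100 and p52, was measured at 6.55 and 5.40 CPM in control and 5.78, 5.53 and 6.12 CPM in irradiated cells. Here the irradiated libraries fell inside the control range, and the log2 fold change was −0.04 (edgeR adjusted p = 0.924, 95% interval −0.66 to 0.57). *Nfkb2* shares 299 exonic bases with *Psd* on the opposite strand, whose reads numbered 1203 to 1752 per library, and 531 with the long non-coding RNA *AC114539.1*. The strand setting of the quantification is not given in the sources used here, so reads of such partners cannot be told apart with certainty.

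*Nfkbia* (chr12:55489410-55492647, minus strand) encodes IkappaBalpha, which retrieves dimers from the nucleus and is resynthesised after each pulse of NF-kappaB activity. It stood at 17.7 and 17.7 CPM in control and at 18.2, 28.9 and 22.3 CPM in irradiated cells. All 3 irradiated libraries were higher, irradiated 1 by less than 1 CPM, and the log2 fold change was 0.38 (SE 0.226, 95% interval −0.13 to 0.90, edgeR adjusted p = 0.234). The gene's transcripts are short, at a mean of 1428 bases, and with the length offset the estimate was −0.04 (adjusted p = 0.90).

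*Tnfaip3* (chr10:19000910-19015657, minus strand) encodes A20, a ubiquitin-editing enzyme that switches off signalling upstream of IKK. It stood at 4.10 and 7.69 CPM in control and at 6.89, 7.35 and 9.11 CPM in irradiated cells. The spread between the controls was wider than that between the irradiated libraries, and the groups overlapped. The log2 fold change was 0.40 (SE 0.332, 95% interval −0.36 to 1.16, edgeR adjusted p = 0.392), and between −0.50 and 0.94 over the alternatives.

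The IKK complex pairs the kinases IKKalpha and IKKbeta with the scaffold NEMO. *Chuk* (chr19:44073335-44107480, minus strand), the gene for IKKalpha, stood at 48.9 and 57.1 CPM in control and 45.7, 61.2 and 52.4 CPM in irradiated cells. The irradiated libraries spanned the control range, with a log2 fold change of 0.00 (SE 0.172, 95% interval −0.39 to 0.40, edgeR adjusted p = 0.991). *Ikbkb* (chr8:22659212-22706589, minus strand), the gene for IKKbeta, stood at 43.7 and 43.1 CPM in control and 36.6, 34.9 and 38.3 CPM in irradiated cells. All 3 irradiated values were below both controls, yet the log2 fold change of −0.24 (SE 0.145, edgeR adjusted p = 0.236) did not pass the test, and it was −0.03 with the length offset. *Ikbkg* (chrX:74393290-74453854, plus strand), the gene for NEMO, stood at 25.6 and 23.6 CPM in control and 32.5, 27.4 and 32.9 CPM in irradiated cells. This was the opposite order, again without overlap, with a log2 fold change of 0.33 (SE 0.170, 95% interval −0.06 to 0.72, edgeR adjusted p = 0.177). *Ikbkg* shares 418 exonic bases with *G6pdx* on the opposite strand, which had 1044 to 1282 reads per library.

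**Figure D2:**
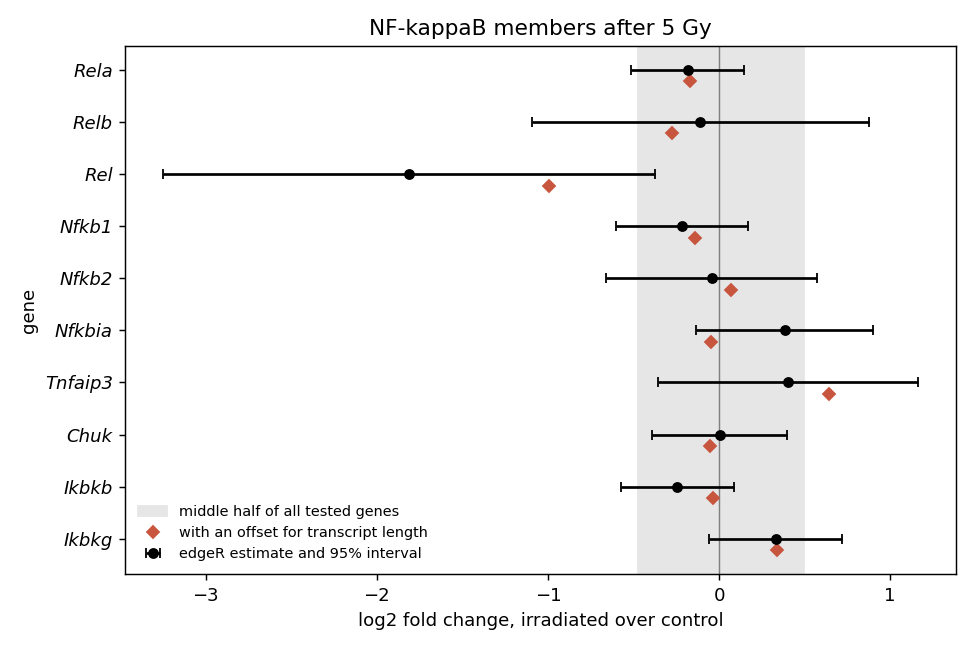
Log2 fold change of irradiated over control for each gene (black points, with 95% intervals) and with an offset for transcript length (red diamonds). The grey band runs from the lower to the upper quartile of all tested genes, from −0.47 to 0.50, and only the interval of *Rel* excludes 0.

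On the TPM scale, which is per transcript length and allows genes to be set beside each other, the control order was *Chuk* (55.5 ± 0.224 TPM, SD, n = 2), *Rela* (49.4 ± 2.12), *Nfkbia* (29.8 ± 7.09), *Nfkb1* (26.5 ± 4.95), *Ikbkb* (25.4 ± 0.296), *Ikbkg* (17.4 ± 0.159), *Tnfaip3* (4.28 ± 1.21), *Nfkb2* (3.91 ± 0.436), *Relb* (2.72 ± 0.468) and *Rel* (0.487 ± 0.177). Thus *Rela*, *Nfkb1*, *Nfkbia* and the 3 IKK genes stood above *Tnfaip3*, *Nfkb2*, *Relb* and *Rel*. Neighbours whose control ranges overlapped were *Nfkbia* and *Nfkb1*, *Nfkb1* and *Ikbkb*, and *Tnfaip3* and *Nfkb2*. In irradiated cells *Rela* was first (35.7 ± 2.12 TPM, SD, n = 3), with *Chuk* at 30.8 ± 6.76 TPM and *Nfkbia* at 29.8 ± 2.85 TPM. The place of *Chuk* rested on non-coding transcripts, some of them short. By coding transcripts alone it stood at 18.6 and 25.6 TPM in control and at 21.2, 25.5 and 22.9 TPM in irradiated cells, below *Rela* in every library.

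TPM of 6 genes did not overlap and was lower after irradiation, against 3 genes by CPM, and on this scale 42.7% of all tested genes were lower without overlap. *Ikbkg* was higher (17.3 and 17.6 TPM against 20.8, 20.6 and 20.5 TPM), as were 15.4% of all tested genes. Its coding transcripts alone overlapped between groups, at 17.3 and 16.8 TPM against 15.6, 20.4 and 20.5 TPM. In irradiated 1, 5.19 TPM lay on *Ikbkg-213*, a non-coding transcript with 27.4 reads there and 0 in each other library. The median log2 fold change of all genes on the log2(TPM + 0.5) scale was −0.27, and these values are to be read beside that shift. *Chuk* stood at 55.7 and 55.4 TPM in control against 23.0, 35.0 and 34.5 TPM in irradiated cells, and *Nfkb1* at 30.03 and 23.0 TPM against 11.8, 13.6 and 15.1 TPM. Both were called lower by limma on this scale, with a log2 fold change of −0.87 for *Chuk* (adjusted p = 0.0344) and −0.95 for *Nfkb1* (adjusted p = 0.0297), while their CPM overlapped between groups.

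The transcripts behind this difference were therefore examined, a step chosen after these values were seen. Reads of each gene were summed by the annotated type of transcript (protein coding, retained intron, nonsense-mediated decay) and tested as separate features in 1 edgeR fit with its own scaling. A retained-intron transcript keeps intron sequence that splicing normally removes and is not annotated as coding. Retained-intron transcripts held 2.35% and 2.69% of all reads in the control libraries and 1.23%, 1.76% and 1.55% in the irradiated ones, and the median log2 fold change of the 4917 such features tested was −1.03. The features of *Nfkb1*, *Chuk* and *Ikbkb* had lower estimates as well.

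The junctions that a retained intron leaves unspliced are shown for the transcript with the most such reads among those that keep bases past an exon of the main coding transcript, with the last 30 bases of the coding exon in capitals and the first 30 bases of the intron in lower case. They are taken from the GENCODE M21 transcripts, on the minus strand of GRCm38. The *Nfkb1-204* junction follows exon 12 of the main coding transcript at chr3:135612384-135612443, and the transcript holds 1824 bases of that intron. The *Chuk-207* junction follows exon 16 at chr19:44081916-44081975, with 531 intron bases. The *Ikbkb-211* junction follows exon 12 at chr8:22671601-22671660, and the transcript holds the whole intron of 1900 bases.
Nfkb1-204: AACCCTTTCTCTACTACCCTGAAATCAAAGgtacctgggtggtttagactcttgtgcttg
Chuk-207: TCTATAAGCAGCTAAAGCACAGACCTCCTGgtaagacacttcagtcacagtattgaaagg
Ikbkb-211: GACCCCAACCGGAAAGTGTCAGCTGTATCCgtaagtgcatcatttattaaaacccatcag

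Retained-intron transcripts of *Nfkb1* received 288.6 and 233.1 reads in the control libraries and 12.8, 25.5 and 33.5 reads in the irradiated ones. Every irradiated library was far below both controls, and the feature fell by 3.12 on the log2 scale (SE 0.483, edgeR adjusted p = 0.0284), where 5.31% of retained-intron features were called lower. The call was lost when control 2 (adjusted p = 0.138), irradiated 1 (0.0887), irradiated 2 (0.103) or irradiated 3 (0.0508) was left out, and under the replicate block (0.258), while the log2 fold change stayed between −3.31 and −2.81. It was kept without control 3 (0.0285) and with the length offset (0.0279). *Nfkb1-204*, whose junction is given above, had 116.3 and 90.0 reads in control and 10.6, 24.5 and 27.4 in irradiated cells, and *Nfkb1-202* had 165.3 and 135.0 reads in control and 0 in each irradiated library.

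Retained-intron reads of *Chuk* numbered 456.6 and 349.6 in control and 14.3, 89.4 and 164.8 in irradiated cells, a log2 fold change of −1.90 (SE 0.777, edgeR adjusted p = 0.146). Those of *Ikbkb* numbered 143.6 and 221.0 in control and 27.2, 53.5 and 82.1 in irradiated cells, a log2 fold change of −1.49 (SE 0.533, edgeR adjusted p = 0.111). Neither passed the test, and the median log2 fold change of all such features was −1.03. Of the 5 member features of this type that were tested, 1 was called, that of *Nfkb1*, and 3 had an unadjusted p under 0.05 (24.0% of all such features had one, with a lower estimate). The other 2, of *Relb* and *Nfkbia*, were not, and *Nfkbia* had 0 and 79.7 reads in control against 52.7, 0 and 30.9 reads in irradiated cells.

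By reads, protein-coding transcripts gave a different picture, with 0 of 10 genes called by edgeR in that fit, where 11.2% of such features were called higher and 4.29% lower, and 2 of the 10 had an unadjusted p under 0.05. These were *Chuk* and *Ikbkg*, both with higher estimates. The share of all coding features that were higher at that level was not counted. Coding reads of *Nfkb1* numbered 524.2 and 714.0 in control and 593.0, 547.0 and 681.4 in irradiated cells, a log2 fold change of 0.26 (edgeR adjusted p = 0.446). The coding estimates of *Chuk* and *Ikbkb* were also above 0, at 0.51 (edgeR adjusted p = 0.121) and 0.25 (edgeR adjusted p = 0.302), where the median of all protein-coding features was 0.24. By TPM, coding transcripts of *Nfkb1* were lower without overlap, at 12.92 and 16.59 TPM in control and 10.61, 11.96 and 11.22 TPM in irradiated cells. The lower TPM of *Nfkb1* was thus not confined to its non-coding transcripts. Coding TPM of *Chuk* and *Ikbkb* overlapped between groups. How many coding features were lower without overlap by TPM was not counted. *Rel* has 1 transcript, which is coding, so its reads in this fit are those given before.

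A nonsense-mediated decay transcript carries an early stop codon that targets it for degradation. *Nfkb1-209*, the transcript of this type of *Nfkb1*, had 0 reads in both control libraries and 44.4, 45.5 and 111.3 reads in the irradiated ones. It was called higher (edgeR adjusted p = 0.0284), where 2.16% of such features were called higher. With each control library set at 3 reads the difference was 26.7-fold. That is not a lower bound, since the 0 reads are themselves an estimate. The call was lost under the replicate block (adjusted p = 0.258) and without irradiated 1 (0.0887), irradiated 2 (0.103) or irradiated 3 (0.0532). It was also lost without control 2, which leaves 1 control. For *Ikbkb* the order was opposite, with 159.3 and 123.0 reads in control and 20.6, 11 and 0 in irradiated cells (unadjusted p = 0.0272, edgeR adjusted p = 0.110), where 2.49% of such features were called lower and 9.21% were lower at an unadjusted p under 0.05. In control 2 those reads were all assigned to *Ikbkb-203* and in control 3 to *Ikbkb-208*. Reads on transcripts that share exons are divided by estimation, and the main coding transcript of *Nfkb1* was given 0 reads in control 2 and 317.1 in control 3.

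**Figure D3:**
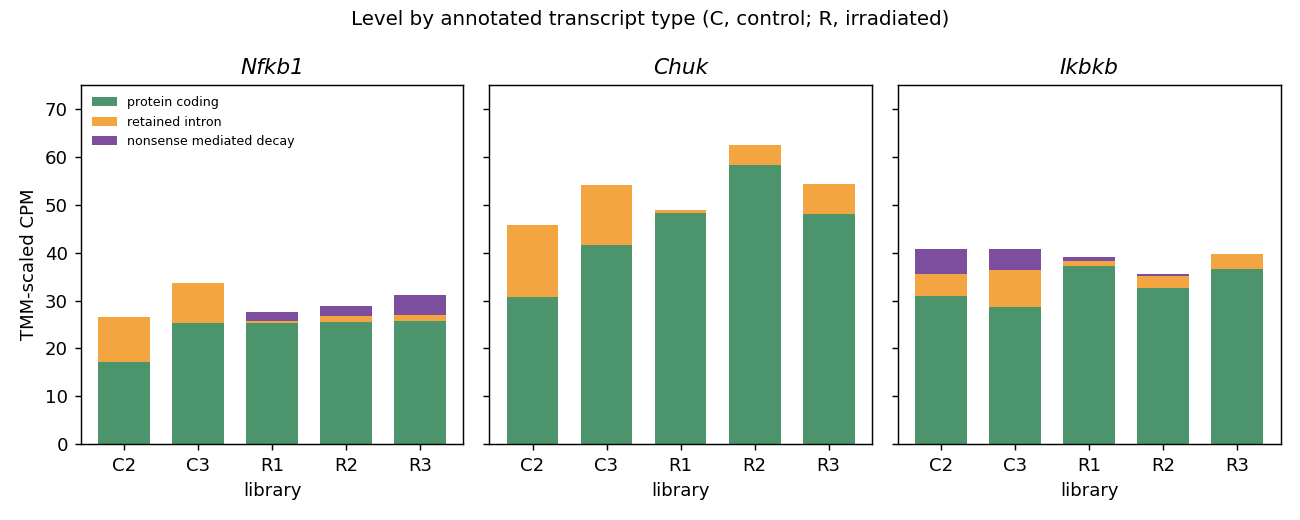
CPM of *Nfkb1*, *Chuk* and *Ikbkb* by annotated transcript type, stacked, in control libraries 2 and 3 (C2, C3) and irradiated libraries 1 to 3 (R1, R2, R3), for the types tested. The retained-intron part is larger in each control library than in any irradiated one. The protein-coding part overlaps between groups for *Nfkb1* and is higher in irradiated libraries for *Chuk* and *Ikbkb*. Over all features tested, the median log2 fold change was −1.03 for retained-intron and 0.24 for protein-coding ones. How many of them did not overlap was not counted.

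As a share of the gene's TPM, coding transcripts of *Chuk* made up 33.5% and 46.2% in control and 92.4%, 73.0% and 66.5% in irradiated libraries. The corresponding shares were 43.0% and 72.0% against 89.9%, 88.2% and 74.6% for *Nfkb1*, and 71.1% and 65.9% against 93.6%, 88.5% and 88.2% for *Ikbkb*. None of these overlapped, and the exact two-sided permutation p was 0.1 for each, the smallest that 2 against 3 libraries can give. In control 2, 9.89 of the 30.03 TPM of *Nfkb1* lay on *Nfkb1-205*, beside 7.21 TPM on its retained-intron transcripts. *Nfkb1-205* is a short non-coding transcript of 528 bases, with 38.2 reads in control 2 and 0 in control 3. Shares that did not overlap and were higher after irradiation were found for 30.8% of the 9296 tested genes with TPM on both coding and other transcripts, and lower shares for 5.01%. By TPM, the coding shares of the other 4 genes with such transcripts overlapped between groups. Their means in control and irradiated libraries were 75.2% and 66.9% for *Relb*, 97.7% and 91.3% for *Ikbkg*, 80.7% and 85.6% for *Nfkbia*, and 98.0% and 99.8% for *Tnfaip3*. On this scale 3 of 7 genes were higher without overlap. By estimated reads the direction for *Relb* turned, at 68.0% and 56.6% in control against 81.8%, 68.2% and 75.9% in irradiated libraries (exact permutation p = 0.2). Shares by reads were not counted over all genes. *Rela*, *Rel* and *Nfkb2* have only coding transcripts in this annotation.

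The balance between subunits was compared as each gene's share of the TPM of the 5 subunits. *Rela* made up 59.6 ± 2.63% in control (SD, n = 2) and 65.1 ± 3.41% in irradiated cells (SD, n = 3, exact permutation p = 0.2), and *Nfkb1* 31.8 ± 3.20% and 24.6 ± 2.90% (exact permutation p = 0.1). With TPM of coding transcripts alone the direction of both turned, *Rela* going from 70.0 ± 2.87% to 68.9 ± 1.95% and *Nfkb1* from 20.9 ± 3.71% to 21.8 ± 1.99%, with overlapping libraries. *Rel* was 0.580 ± 0.162% in control and 0.208 ± 0.109% in irradiated cells (exact permutation p = 0.1), and was lower, without overlap, also by reads.

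Other genes of the pathway were examined in 7 lists with 94 genes, of which 63 were tested. edgeR called 9 higher and 5 lower, with a median log2 fold change of −0.03, where 12.7% of all tested genes were called higher and 13.0% lower. With the length offset it called 2 higher and 1 lower, where 4.25% of all genes were higher and 3.64% lower. Without irradiated 1, 2 or 3 the counts were 2, 2 and 5 higher, where 832, 684 and 1557 of all genes were, beside 1786 in the main fit. They were 4, 4 and 5 lower, where 909, 834 and 1460 of all genes were, beside 1827. The counts also moved, here and over all genes, when a control was left out (see the processing below).

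Among 7 other IkappaB-type inhibitors and modulators, all tested, 1 was called higher and 0 lower (median 0.27). It was *Nkiras2*, a small Ras-like protein that binds IkappaB and slows its degradation, at 48.8 and 47.7 CPM in control and 88.6, 86.6 and 81.6 CPM after 5 Gy. The difference was 0.83 on the log2 scale (SE 0.140, edgeR adjusted p = 0.00949), and 0.61 with the length offset (edgeR adjusted p = 0.0351). *Nkiras2* was not called with the replicate block (edgeR adjusted p = 0.0783) or by limma on log2(TPM + 0.5) (adjusted p = 0.0592). *Bcl3*, a nuclear IkappaB protein, had the largest estimate in the list, named after its values were seen, but rested on 0 and 7 reads in control against 28, 8 and 15 reads in irradiated cells (edgeR adjusted p = 0.171).

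Of 22 upstream adaptors and kinases, 20 were tested, 2 were called higher and 2 lower (median −0.19). *Bcl10*, the adaptor of the CARD-BCL10-MALT1 complex, stood at 10.8 and 19.1 CPM against 29.5, 34.5 and 28.2 CPM (log2 fold change 1.04, edgeR adjusted p = 0.0243). *Tradd*, the death-domain adaptor of the TNF receptor, stood at 7.35 and 10.9 CPM against 18.2, 22.1 and 14.9 CPM (log2 fold change 1.01, edgeR adjusted p = 0.0285). *Traf3*, an inhibitor of the non-canonical pathway, was lower, at 72.8 and 64.9 CPM against 41.1, 35.8 and 43.2 CPM. So was *Tab3*, a subunit that docks the kinase TAK1 on ubiquitin chains, at 42.7 and 34.4 CPM against 21.2, 16.03 and 23.1 CPM. Their log2 fold changes were −0.78 for *Traf3* (edgeR adjusted p = 0.0120) and −0.94 for *Tab3* (edgeR adjusted p = 0.0159). None of these 4 passed the test with the length offset, where the estimates were 0.84 for *Bcl10* (edgeR adjusted p = 0.0538), 0.45 for *Tradd* (0.150), −0.17 for *Traf3* (0.385) and −0.73 for *Tab3* (0.0501). *Rbck1*, a subunit of the linear ubiquitin ligase and the list's highest by mean control TPM (125.5 beside 120.5 for *Tab2*, whose libraries overlapped it), had a log2 fold change of −0.20 (edgeR adjusted p = 0.405).

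Of 10 further ubiquitin-dependent regulators, 9 were tested and 1 was called, *Otulin*, the deubiquitinase for linear chains (14.9 and 16.1 CPM against 24.3, 25.9 and 22.9 CPM, log2 fold change 0.65, edgeR adjusted p = 0.0310). It was not called with the length offset (0.22). The A20 partner *Tax1bp1*, highest in the list by mean control TPM, had a log2 fold change of −0.18 (edgeR adjusted p = 0.416).

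The route from DNA damage to IKK, in which ATM, PARP1, ELKS and ubiquitin ligases act on NEMO, was represented by 7 genes, all tested, with 1 higher and 2 lower (median −0.31). *Atm* was at 156.6 and 115.0 CPM in control and 58.7, 49.7 and 53.7 CPM after 5 Gy, all well below the controls. The estimate was −1.33 on the log2 scale (SE 0.173, edgeR adjusted p = 0.00825), and −0.77 with the length offset (edgeR adjusted p = 0.0286). With the length offset and the replicate block together *Atm* was not called (edgeR adjusted p = 0.0870). *Erc1*, the gene for ELKS, was lower too (log2 fold change −0.90, edgeR adjusted p = 0.0158), but its estimate with the length offset was −0.22 and not called. *Ube2v1*, a partner of the ubiquitin-conjugating enzyme UBC13, was higher (log2 fold change 0.48, edgeR adjusted p = 0.0364), again not with the length offset (0.20). *Parp1*, highest in the list by mean control TPM (218.5, beside 212.0 for *Ube2v1*) but not after irradiation (145.8 beside 218.3), had a log2 fold change of −0.31 (edgeR adjusted p = 0.187).

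**Figure D4:**
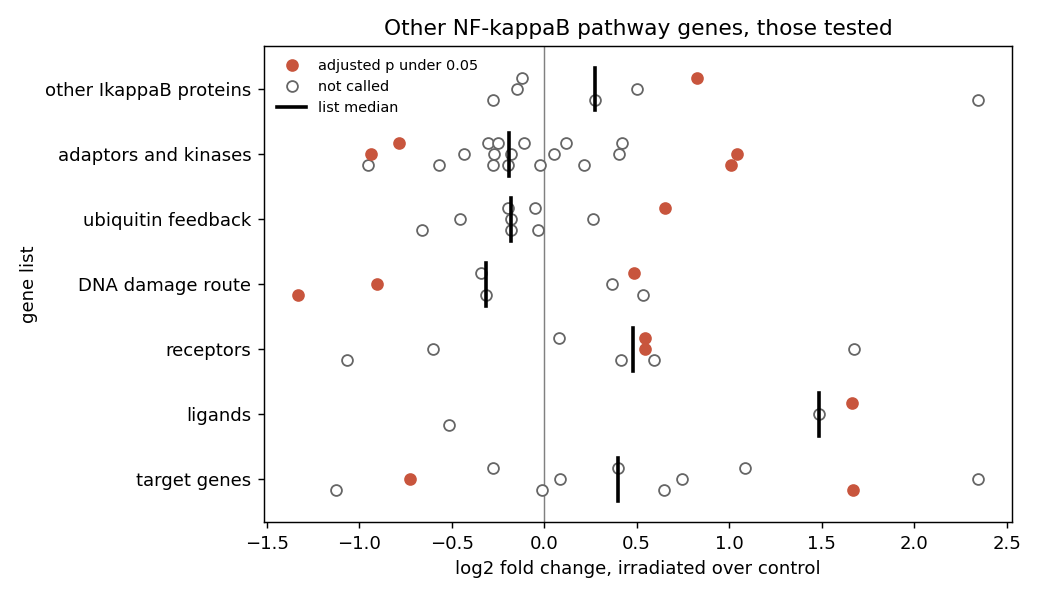
Log2 fold change of irradiated over control for the tested genes of each pathway list, filled where the edgeR adjusted p was under 0.05, with a bar at each list's median. Called genes lie on both sides of 0 in the adaptor, DNA damage and target lists, and most genes are not called.

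Of 13 receptors, 8 were tested, 2 were called higher and 0 lower (median 0.48). *Tnfrsf1a*, the main TNF receptor, stood at 94.2 and 111.1 CPM in control and 142.3, 155.4 and 151.4 CPM in irradiated cells (log2 fold change 0.54, edgeR adjusted p = 0.0318). *Ltbr*, which feeds the non-canonical pathway, stood at 48.9 and 51.8 CPM against 66.4, 72.0 and 81.6 CPM (log2 fold change 0.54, edgeR adjusted p = 0.0359). Neither was called with the length offset, at 0.38 and 0.28. Ligands were scarce, with 3 of 9 tested. *Tnf*, *Il1b* and *Cd40lg* had 0 reads in every library. *Tnfsf12*, which encodes TWEAK, was called higher, with 56.2 and 35.9 reads in control and 181.8, 117.2 and 88.9 reads in irradiated cells (log2 fold change 1.67, SE 0.451, edgeR adjusted p = 0.0310), but not with the length offset (1.21, edgeR adjusted p = 0.112).

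Of 32 genes known as NF-kappaB targets, 11 were tested, 1 was called higher and 1 lower (median 0.40), and 8 had 0 reads in every library. *Gadd45b*, a stress-induced gene that restrains JNK signalling, stood at 10.6 and 18.1 CPM in control and 43.9, 60.4 and 32.8 CPM after 5 Gy. The log2 fold change was 1.67 (SE 0.318, edgeR adjusted p = 0.0115), and 1.19 with the length offset (edgeR adjusted p = 0.0296). With the length offset and the replicate block together *Gadd45b* was not called (edgeR adjusted p = 0.0761). *Cflar*, which encodes the caspase-8 inhibitor c-FLIP, stood at 34.0 and 25.2 CPM against 16.5, 15.6 and 21.6 CPM (log2 fold change −0.72, edgeR adjusted p = 0.0431), and was not called with the length offset (−0.55). *Sod2*, mitochondrial superoxide dismutase and highest in the list by mean control TPM, had a log2 fold change of −0.01 (SE 0.144, edgeR adjusted p = 0.955). The macrophage growth factor gene *Csf1* received 20 and 45 reads in control and 32, 24 and 39 in irradiated cells (log2 fold change 0.09, SE 0.586, edgeR adjusted p = 0.928). The chemokine genes *Ccl2* and *Ccl7* were below testing, *Ccl2* with 0 and 0 reads against 5, 1 and 0, and *Ccl7* with 0 reads in all 5 libraries. A count of 0 allows up to 3 reads in a library by counting error alone, so a difference between levels that low was not detectable. Neither chemokine gene had more than 5 reads in any library.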

How the data were processed

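Poly(A) enrichment and strand setting of the 5 bulk libraries are not given in the sources used here. The authors quantified reads on mm10 with Salmon (version 0.8.2 in the submitters' processing notes, which also name DESeq2 1.22.2), and the annotation release is not given in the sources used here. The deposited tables hold estimated counts, TPM and effective lengths per transcript. Of 113116 transcripts, 112762 matched GENCODE M21 (at least 99.87% of reads) and were summed to genes. Estimated counts were rounded and tested with edgeR 4.0.16 (R 4.3.3, filterByExpr, TMM, quasi-likelihood test, no block) over 14106 genes with Benjamini-Hochberg adjustment, and calls were made at 0.05. Shares were compared by exact two-sided permutation tests, whose smallest p is 0.1. Intervals are 95%. The scripts were tested on simulated data.

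Alternatives were DESeq2 1.42.0, other size factors, no filter, offsets from effective length or from splines (5 degrees of freedom) fitted per library to transcript length or to GC content, limma 3.58.1 on log2(TPM + 0.5), coding genes only, the replicate block, and each library left out. The transcript-type tests, their alternatives, the crossed block and the coding-only subunit shares were chosen after seeing the data. Replicate numbers 2 and 3 occur in both groups. The difference between controls 2 and 3 and that between irradiated 2 and 3 had a correlation of −0.20 across genes. With 1 such difference per group, this cannot show whether same-numbered libraries shared a culture. The main fit did not treat them as pairs, and fits with a block are given below. The text names all 10 members, up to 3 called genes in each direction and the gene with the highest mean control TPM per pathway list, and *Csf1*, *Ccl2* and *Ccl7*. *Birc3*, *Nfkbie*, *Bcl3*, *Traf1*, *Tnf* and *Il1b* are in more than 1 list. Members and lists were chosen with earlier results of these data known.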

Additional observations from a re-analysis of the deposited data

How the results depend on the processing

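Fold changes below are log2, irradiated over control. The count of members called higher (0) became 1 (*Nfkbia*) with the crossed block, and that called lower (0) became 1 with DESeq2 and 2 with limma on TPM. Leaving out a library left both at 0. Other pathway genes called higher (9) became 2 with the transcript length offset, 4 with the GC offset, 1 with limma and 0 to 11 without 1 library. Those called lower (5) became 1 with the length offset, 8 with DESeq2, 11 with limma and 1 to 6 without 1 library. Over all genes, 1786 higher and 1827 lower became 600 and 514 with the length offset, 717 and 2681 with limma, and 95 to 2232 higher and 175 to 1977 lower without 1 library, the lowest being without control 2.

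With the replicate block, in which irradiated 1 has no weight, 602 genes were higher and 494 lower, and 2 and 1 pathway genes. With the block and the length offset together these were 11 and 19 genes, and 0 and 0 pathway genes. The crossed block gave 3026 genes higher, and 16 pathway genes higher and 9 lower. Leave-out fits with 1 control assume that it varies like the irradiated libraries.

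The sign turned, with no call unless given, for *Relb* (0.16 with the effective length offset, 0.47 without control 3), *Nfkb2* (0.016 with upper-quartile scaling, 0.006 without the filter, 0.03 with effective length, 0.07 with transcript length with or without the block, 0.12 without control 2), *Nfkbia* (−0.045 with transcript length) and *Tnfaip3* (−0.23 with effective length, −0.50 with limma). *Chuk* (0.00) turned to −0.01 with DESeq2 size factors, −0.50 with effective length, −0.054 with transcript length, −0.87 with limma (called), −0.005 with coding genes only, −0.08 without control 2 and −0.11 without irradiated 2. Of the pathway genes, *Rbck1* turned to 0.048 without control 2 (−0.37 to 0.048 without 1 library) and *Tax1bp1* to 0.07 with the GC offset. *Sod2* turned to 0.045 (upper quartile), 0.034 (no filter), 0.46 (effective length), 0.11 (limma) and 0.14 (without control 2). *Csf1* turned to −0.026 (GC) and −0.15 (limma), and lay between −0.40 and 0.87 without 1 library (−0.001 without irradiated 3).

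In percentage points, the subunit share with coding TPM changed by −1.06 for *Rela* and 0.922 for *Nfkb1*. The coding share of *Relb* changed by 13.0 on reads and by −8.34 on TPM. On TPM, leaving out 1 library gave −17.4 to 4.14 for *Relb*, −14.4 to 24.2 for *Nfkbia*, −0.241 to 3.75 for *Tnfaip3* and −10.7 to 1.75 for *Ikbkg*. Except where the construction shows it (fewer libraries), the cause was not tested. Precision is limited by the 2 controls and by low counts, and the 95% interval of *Relb* ran from −1.10 to 0.88 on the log2 scale.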
